A study of Mus musculus with 6 samples.

Results

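The Gi-coupled receptors through which circulating and local signals restrain fat breakdown were examined in eWAT, the epididymal white adipose tissue of male mice. They were 9 receptors chosen by name (Hcar1, Hcar2, Ffar2, Ffar4, Adora1, Ptger3, Npy1r, Sucnr1 and Adra2a) of 54532 genes in the count table, and each was found there once. The cachectic group was 3 male C57BL/6 mice inoculated under the skin with LLC cells (Lewis lung carcinoma), a tumor line from the same strain, and the control group was 3 C57BL/6 mice. The tissue was taken on day 21 after inoculation, and the methods give an age of 6 to 10 weeks for the mice obtained. The labels name no gene deletion or agent in either group. LLC cells are 1 transplanted line, the labels name no treatment of the control mice, and nothing says whether any mice were pooled, so p-values measure the spread between these 6 samples.

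The total count was 18766846, 18475204 and 18855546 in control mice 1, 2 and 3, and 17278966, 15711022 and 14928766 in cachectic mice 1, 2 and 3. CPM denotes counts scaled to a common library size after TMM normalization. Positive log2 fold changes mean higher expression in cachectic mice, and they were tested for 16003 genes with enough counts by edgeR's quasi-likelihood test with Benjamini-Hochberg adjustment, and called at an adjusted p-value under 0.05. The fat identity of the tissue was clear in every mouse, with the adipocyte hormone gene Adipoq at 1612, 2066 and 2019 CPM in control mice 1, 2 and 3 and at 4175, 1656 and 2454 CPM in cachectic mice 1, 2 and 3. Some samples stood apart within their group. On a principal component analysis the first component (57.6% of the variance) separated the groups, the second (16.3%) set control mouse 1 apart from the other controls, and the third (14.5%) set cachectic mouse 2 against cachectic mouse 3. For each receptor, the range of the log2 fold change with 1 mouse left out at a time is given, with the mice that moved it most.

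Fat cells break down triglyceride when noradrenaline acts on beta-adrenergic receptors, which raise cyclic AMP through the stimulatory G protein Gs and so activate protein kinase A and the lipases. The receptors described here couple to the inhibitory G protein Gi, which lowers cyclic AMP and so opposes lipolysis, although Ffar2 and Ffar4 are known to couple to Gq as well. Their ligands are lactate (Hcar1), beta-hydroxybutyrate and niacin (Hcar2), short-chain fatty acids (Ffar2), long-chain fatty acids (Ffar4), adenosine (Adora1), prostaglandin E2 (Ptger3), neuropeptide Y and peptide YY (Npy1r), succinate (Sucnr1) and noradrenaline (Adra2a).

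Of the 9 receptors, 1 changed: Adra2a, the alpha-2A adrenergic receptor, fell to 32.8% of its control level in cachectic mice. All 9 passed the filter on low counts, with between 24 and 2319 counts in a mouse. That 1 of 9 is 11.1%, against 17.6% of all genes tested that were called in either direction, and 8.63% that were called lower. None of the 9 was called higher by edgeR, DESeq2 or limma-voom, while edgeR called 9% of all genes higher. At an unadjusted p under 0.05, edgeR's quasi-likelihood test also gave Adra2a alone, against 34.4% of all genes. The log2 fold change was negative for 7 receptors and positive for 2, with a median of -0.37 beside -0.003 over all genes tested. With 9 receptors, 1 gene called is near these background shares.

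**Figure D1:**
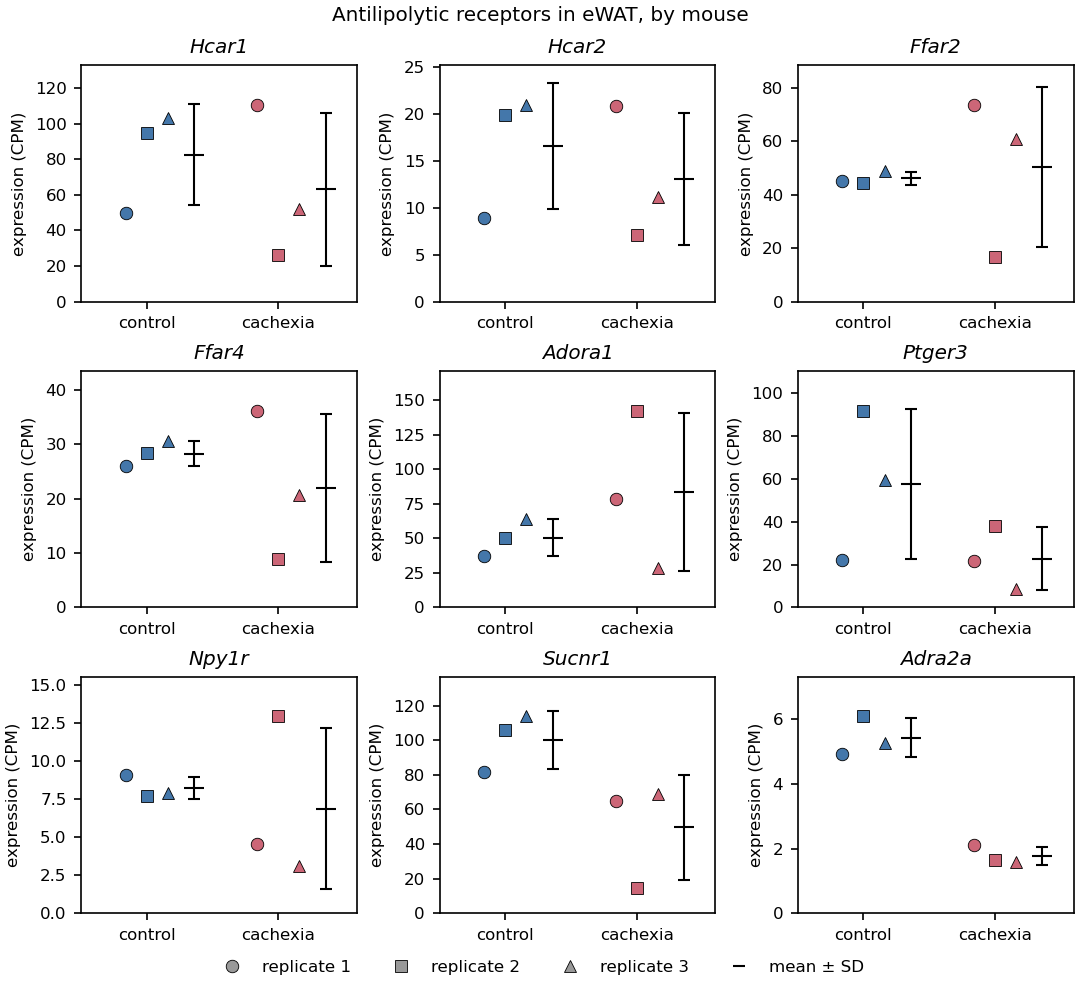
Expression of each of the 9 receptors in CPM (y axis, from 0) in the 3 control and 3 cachectic mice, with 1 symbol per replicate number and the mean ± SD of each group beside the points. The groups are apart for Sucnr1 and Adra2a, and the cachectic mice are widely scattered for every receptor other than Adra2a.

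Adra2a (ENSMUSG00000033717, chr19:54045182-54048982, plus strand) senses noradrenaline, the same transmitter that drives lipolysis through beta-adrenergic receptors. Its counts were few, 98, 106 and 93 in control mice 1, 2 and 3 and 36, 27 and 24 in cachectic mice 1, 2 and 3. In CPM these were 4.92, 6.08 and 5.27 in the controls and 2.10, 1.66 and 1.57 in the cachectic mice. Every cachectic mouse was below every control mouse, and the mice of each group lay close together. The log2 fold change was -1.60 ± 0.29 (SE, 95% interval -2.27 to -0.93, n = 3 per group) with an adjusted p-value of 0.0110 by edgeR's quasi-likelihood test. The exact permutation test (two-sided) gave p = 0.1, the smallest that 3 against 3 mice allow. Without control mouse 3 the log2 fold change was -1.63 with an edgeR adjusted p-value of 0.0516, which is no longer past the threshold. With each of the other mice left out in turn it was between -1.74 and -1.51 and stayed past the threshold. In bulk tissue, fewer cells of a type and less RNA per cell cannot be told apart.

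The sequence before the start of Adra2a is shown because it is the receptor that changed. RefSeq (GRCm38.p6) places 250 bases upstream of its transcript at chr19:54045009-54045258, with a GC content of 67.6% beside a median of 52.4% over 32841 promoters. In that window, a TATA box (TATAAA) was found 29 bases before the start, the core of a cyclic AMP response element (TGACG) 69 bases before it and a GC box (GGGCGG) 102 bases before it, searching both strands. These letters occur in 12.4%, 17.8% and 32.7% of all such promoters. The 30 bases around the TATA box, chr19:54045218-54045247 on the plus strand, have its letters in capitals. The start of the gene in the deposited table lies inside the window, and GENCODE M21 has 1 transcript that starts farther upstream, so the label of promoter depends on the annotation. A match of letters is a description and not evidence that a factor binds there.
Adra2a: tcatcctggggcTATAAAaccagtccagcg

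Sucnr1, the succinate receptor (ENSMUSG00000027762, chr3:60081869-60087566, plus strand), was the only other receptor whose groups did not overlap. Control mice 1, 2 and 3 had 81.4, 105.7 and 113.8 CPM, and cachectic mice 1, 2 and 3 had 65.0, 14.9 and 69.2 CPM. All 3 cachectic values were below the lowest control, and cachectic mouse 2 was far below the other cachectic mice. The log2 fold change of -1.01 ± 0.48 (SE, 95% interval -2.13 to 0.11) did not pass the threshold, with an adjusted p-value of 0.183 by edgeR's quasi-likelihood test. Groups that did not overlap were found for 40.5% of all genes tested (20.1% lower and 20.4% higher), so that 2 of 9, both lower, is near the background. With 1 mouse left out it ran from -1.32 without cachectic mouse 3 (edgeR adjusted p = 0.161) to -0.58 without cachectic mouse 2 (edgeR adjusted p = 0.0774). With both cachectic mouse 2 and control mouse 1 left out it was -0.71 with an edgeR adjusted p-value of 0.0274.

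Ptger3, the EP3 receptor for prostaglandin E2 (ENSMUSG00000040016, chr3:157566892-157645888, plus strand), had a large log2 fold change with an equally large spread. The controls had 22.1, 91.9 and 59.4 CPM and the cachectic mice 21.9, 37.8 and 8.59 CPM in replicates 1, 2 and 3. Control mouse 1 was as low as cachectic mouse 1, so the groups overlapped. The log2 fold change was -1.34 ± 0.60 (SE, 95% interval -2.73 to 0.05, adjusted p = 0.159 by edgeR's quasi-likelihood test). With 1 mouse left out the change never passed the threshold. It was then -0.84 without control mouse 2 (edgeR adjusted p = 0.422), -0.95 without cachectic mouse 3 (edgeR adjusted p = 0.297), -1.73 without control mouse 1 (edgeR adjusted p = 0.0696) and -1.91 without cachectic mouse 2 (edgeR adjusted p = 0.0994). Leaving out control mouse 1 and cachectic mouse 2 together, a choice made after seeing the data, brought it to -2.30 with an edgeR adjusted p-value of 0.0299.

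The 250 bases upstream of these 2 receptors, from RefSeq on GRCm38.p6, are shown as a contrast in base composition between the pair with the next largest log2 fold changes after Adra2a. Ptger3 (chr3:157566626-157566875, plus strand) has a GC content of 62.0% and 21 CG dinucleotides, with 3 GC boxes in capitals, which lie 87, 60 and 15 bases before the start, GGGCGG or its reverse complement CCGCCC. Sucnr1 (chr3:60081619-60081868, plus strand) has a GC content of 38.0% and 1 CG dinucleotide, and none of the 5 motifs searched was found in it, so it is all in lower case. The 5 were the TATA box, the GC box and the cyclic AMP response element core above, the nuclear receptor core AGGTCA and the CCAAT box. The last 2 are in 14.0% and 33.9% of all promoters, and among the 8 receptors with a RefSeq promoter both were found for Ffar2 alone.
Ptger3: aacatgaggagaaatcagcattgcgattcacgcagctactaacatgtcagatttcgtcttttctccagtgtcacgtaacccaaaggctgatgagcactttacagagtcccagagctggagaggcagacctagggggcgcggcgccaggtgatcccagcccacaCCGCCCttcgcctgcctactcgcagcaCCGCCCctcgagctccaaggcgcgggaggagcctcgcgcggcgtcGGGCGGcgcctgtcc
Sucnr1: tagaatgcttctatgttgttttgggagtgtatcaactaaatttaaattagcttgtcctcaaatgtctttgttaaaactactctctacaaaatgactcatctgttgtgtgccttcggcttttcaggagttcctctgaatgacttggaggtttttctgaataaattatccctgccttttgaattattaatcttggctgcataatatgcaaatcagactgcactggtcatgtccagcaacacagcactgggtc

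Hcar1 (ENSMUSG00000049241, chr5:123876736-123880020, minus strand) and Hcar2 (ENSMUSG00000045502, chr5:123863570-123865499, minus strand) encode the lactate and the beta-hydroxybutyrate receptor and are neighbours, 11236 bases apart. Hcar1 was at 50.1, 94.6 and 103.0 CPM in control mice 1, 2 and 3 and at 110.8, 26.3 and 52.1 CPM in cachectic mice 1, 2 and 3. Hcar2 was at 8.88, 19.9 and 21.02 CPM in the controls and at 20.9, 7.12 and 11.2 CPM in the cachectic mice. Both genes were lowest in control mouse 1 among the controls, and among the cachectic mice they were highest in mouse 1 and lowest in mouse 2, and their groups overlapped. Their log2 fold changes of -0.39 ± 0.49 and -0.34 ± 0.44 (SE) had 95% intervals from -1.51 to 0.74 and from -1.36 to 0.68, with edgeR adjusted p-values of 0.617 and 0.625. Single mice moved both widely. Without cachectic mouse 2 these were -0.01 and -0.04, without control mouse 1 both were -0.65, and without cachectic mouse 1 they were -1.08 and -0.86, with edgeR adjusted p-values of 0.128 and 0.219 in the last case. Of all 9 receptors these 2 had the most similar profile, with a root mean square difference of 0.200 in log2 CPM over the 6 mice after each gene was centred on its own mean. No 31-base stretch of one transcript is found in the other.

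Ffar2 (ENSMUSG00000051314, chr7:30818348-30823775, minus strand) and Ffar4 (ENSMUSG00000054200, chr19:38097079-38114263, plus strand) are receptors for free fatty acids, the products of lipolysis and fermentation. Ffar2 was at 45.0, 44.5 and 48.8 CPM in the 3 controls and at 73.7, 16.6 and 60.8 CPM in cachectic mice 1, 2 and 3. Control mice were nearly alike, and of the cachectic mice 2 were above all controls and 1 far below. Its log2 fold change of 0.13 ± 0.45 (SE, 95% interval -0.90 to 1.16, edgeR adjusted p = 0.867) changed sign under other settings. Without cachectic mouse 2 it was 0.55 with an edgeR adjusted p-value of 0.0470, past the threshold, while without cachectic mouse 1 it was -0.25 with an edgeR adjusted p-value of 0.759, and without cachectic mouse 3 it was -0.02. Ffar4 was at 25.9, 28.4 and 30.5 CPM in the controls and at 36.2, 8.97 and 20.6 CPM in cachectic mice 1, 2 and 3, again with cachectic mouse 1 above and cachectic mouse 2 far below every control. The log2 fold change of Ffar4 was -0.37 ± 0.42 (SE, 95% interval -1.33 to 0.60, edgeR adjusted p = 0.578), and with 1 mouse left out it ran from -0.94 without cachectic mouse 1 (edgeR adjusted p = 0.119) to 0.01 without cachectic mouse 2.

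Adora1, the A1 adenosine receptor (ENSMUSG00000042429, chr1:134199223-134235431, minus strand), had the highest positive log2 fold change. Control mice 1, 2 and 3 had 37.4, 49.9 and 64.0 CPM, and cachectic mice 1, 2 and 3 had 78.7, 142.4 and 28.4 CPM. Of the cachectic mice, 2 were above all controls and cachectic mouse 3 was below them. The log2 fold change was 0.72 ± 0.50 (SE, 95% interval -0.43 to 1.87, adjusted p = 0.343 by edgeR's quasi-likelihood test). It was 0.09 without cachectic mouse 2 and 1.14 without cachectic mouse 3, the latter with an edgeR adjusted p-value of 0.0540, and lay between these with any other mouse left out. Adora1 overlaps Mybph on the opposite strand, and 18.6% of its 31-base stretches occur in another gene's transcript. Mybph itself averaged 0.038 CPM in the controls and had no count in the cachectic mice, against 50.5 and 83.2 CPM for Adora1.

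Npy1r, the Y1 receptor for neuropeptide Y, a sympathetic co-transmitter (ENSMUSG00000036437, chr8:66697192-66706792, plus strand), was at 9.08, 7.74 and 7.93 CPM in the controls and at 4.55, 13.0 and 3.15 CPM in cachectic mice 1, 2 and 3. Cachectic mice 1 and 3 were below every control and cachectic mouse 2 above them all. Over all mice the log2 fold change was -0.26 ± 0.48 (SE, 95% interval -1.38 to 0.86, edgeR adjusted p = 0.744), and with 1 mouse left out it ran from -1.09 without cachectic mouse 2 (edgeR adjusted p = 0.0567) to 0.09 without cachectic mouse 3 (edgeR adjusted p = 0.910).

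**Figure D2:**
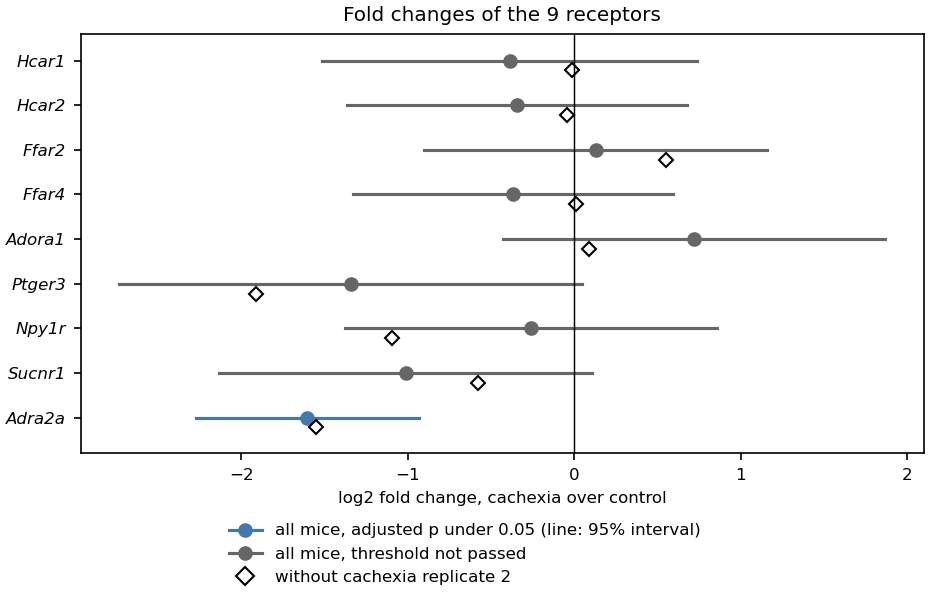
Log2 fold change, cachectic against control (x axis), for each receptor, with its 95% interval from all 6 mice, and the value without cachectic mouse 2 as an open diamond. The interval of Adra2a, from -2.27 to -0.93, is the only one that leaves out 0, and its diamond at -1.55 lies close to the value from all mice.

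Most of these receptors were widely spread among the cachectic mice, and some among the controls as well. The SD of log2 CPM within the cachectic group had a median of 1.03 over the 9 receptors, against 0.255 over all genes tested, and within the control group it was 0.253 against 0.192. For 8 receptors the spread in the cachectic group was larger than that of at least 94.5% of all genes tested, up to 99.2% for Sucnr1, whereas that of Adra2a was larger than 31.1%. The spread among the controls was as extreme for Ptger3 and Hcar2, larger than that of 98.0% and 94.5% of all genes, and nearly so for Hcar1 (91.7%). For Ptger3 the SD of log2 CPM was 1.04 in the controls and 1.05 in the cachectic mice. The highest cachectic mouse exceeded the lowest by 2.93-fold (Hcar2) to 5.02-fold (Adora1) for the 8, and by 1.33-fold for Adra2a. Cachectic mouse 2 was the lowest of the cachectic mice for 5 receptors (Hcar1, Hcar2, Ffar2, Ffar4 and Sucnr1), the highest for 3 (Adora1, Ptger3 and Npy1r) and in the middle for Adra2a. Over all genes tested it was the lowest for 33.8% and the highest for 33.3%. The 5 receptors low in that mouse bind carboxylic acid metabolites or fatty acids, and the 3 high in it bind adenosine, a prostaglandin and a neuropeptide. This grouping was seen after the values were known and rests on 1 mouse. Profiles were least alike between Adora1 and Sucnr1, at a root mean square difference of 1.58 in log2 CPM, and the closest pairs after Hcar1 and Hcar2 were Hcar1 with Ffar4 (0.277) and Ffar2 with Ffar4 (0.305).

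**Figure D3:**
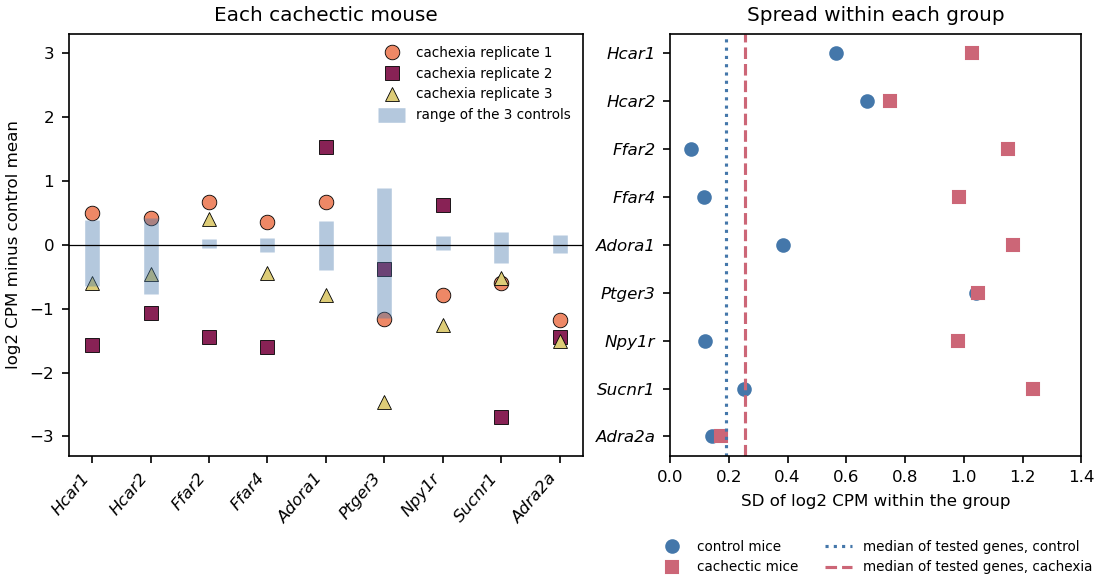
Left, log2 CPM of each receptor in each cachectic mouse minus the control mean (y axis), with the range of the 3 controls as a bar. Right, SD of log2 CPM within each group (x axis) with the median of all tested genes as lines. Cachectic mouse 2 lies lowest for 5 receptors and highest for 3, and the cachectic mice lie close together only for Adra2a, whose SD is 0.174.

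Markers of the fat cell and of other cells moved with that mouse. The 14 adipocyte markers, of which none was at 0 and Car3 had the highest CPM on average over the 6 mice (the measure of the most abundant gene in each list), summed to 43683, 56633 and 62624 CPM in control mice 1, 2 and 3 and to 63262, 34175 and 52032 CPM in cachectic mice 1, 2 and 3. In cachectic mouse 2, 10 of these 14 were the lowest of the cachectic mice. Its 10 endothelial markers summed to 3894 CPM beside 3116 and 2674 CPM in cachectic mice 1 and 3, with Pecam1 the most abundant, and its 8 mesothelial markers summed to 180.0 CPM beside 357.0 and 417.0 CPM, with Upk3b the most abundant. Its 14 macrophage markers, led by Lyz2, summed to 2159 CPM beside 1757 and 1536 CPM. The part of these differences in the receptor values was not tested.

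Levels between receptors can be compared only per length of the gene model. As CPM per kilobase, the control means were 61.1 ± 10.3 (SD, n = 3) for Sucnr1, 25.1 ± 8.7 for Hcar1 and 20.3 ± 1.6 for Ffar4. They were followed by Ffar2 at 16.5 ± 0.84, Ptger3 at 10.2 ± 6.1, Adora1 at 8.72 ± 2.3 and Hcar2 at 8.61 ± 3.5. Npy1r at 2.39 ± 0.21 and Adra2a at 1.43 ± 0.16 were the lowest. The ranges of neighbours in this order did not overlap between Sucnr1 and Hcar1, Ffar4 and Ffar2, Hcar2 and Npy1r, and Npy1r and Adra2a, and they overlapped between all other neighbours. So the receptor that fell was also the least abundant of the 9 in control fat. In cachectic mice Adra2a was at 0.468 ± 0.074 CPM per kilobase, still the lowest. Summed over the 9 receptors, the level per kilobase was 118, 169 and 176 in control mice 1, 2 and 3 and 156, 68.6 and 108 in cachectic mice 1, 2 and 3, with overlapping groups.

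Noradrenaline starts lipolysis through beta-adrenergic receptors, of which Adrb3 and Adrb1 did not pass the threshold. Adrb3, the main beta receptor of mouse fat cells, was at 525.8, 1108 and 922.6 CPM in control mice 1, 2 and 3 and at 825.1, 471.5 and 1123 CPM in cachectic mice 1, 2 and 3, and the groups overlapped. Its log2 fold change was -0.08 ± 0.37 (SE, edgeR adjusted p = 0.902). Adrb1 was at 7.17, 6.88 and 8.90 CPM in the controls and 2.45, 1.04 and 5.64 CPM in the cachectic mice, apart but not past the threshold (log2 fold change -1.33 ± 0.53, edgeR adjusted p = 0.121). The log2 ratio of Adra2a to Adrb3 in CPM was -6.60, -7.40 and -7.32 in the controls and -8.31, -7.77 and -9.08 in the cachectic mice. It was lower in every cachectic mouse, by a mean difference of -1.28, and the exact permutation test (two-sided) gave p = 0.1, the smallest possible. With a pseudocount of 2 in place of 0.5 the difference was -0.87, the groups overlapped and the exact permutation p was 0.2. Per kilobase, Adrb3 exceeded Adra2a 177-fold in the controls and 511-fold in the cachectic mice.

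Other receptors for the same ligands or of the same families moved in both directions. Of 19 relatives listed, 10 passed the filter, 2 rose and 2 fell, a share of 40% beside 17.6% of all genes, with a median log2 fold change of -0.42. For adenosine, the Gs-coupled receptor Adora2a rose from 20.7, 24.1 and 23.5 CPM to 47.2, 38.1 and 76.3 CPM (log2 fold change 1.24, edgeR adjusted p = 0.0154). Adora2b, also Gs-coupled, fell from 2.26, 2.46 and 2.44 CPM to 0.35, 0.246 and 1.05 CPM (log2 fold change -2.12, edgeR adjusted p = 0.0346). The 2 receptors that raise cyclic AMP in answer to adenosine thus went opposite ways, while Adora1 did not pass the threshold. Adora2b was near the floor in the cachectic mice, so its fall rests on few counts. No relative was called lower with at least 10 counts in every sample, or with any 1 of the control mice left out. For prostaglandin E2, the Gs-coupled Ptger2 rose from 3.71, 4.41 and 4.87 CPM to 7.93, 11.5 and 9.11 CPM (log2 fold change 1.13, edgeR adjusted p = 0.0203), and Ptger4 and Ptger1 had log2 fold changes of 0.46 and 0.08 with edgeR adjusted p-values of 0.191 and 0.930. Among the alpha-adrenergic receptors, Adra1b, which couples to Gq, fell from 5.27, 3.50 and 3.40 CPM to 1.92, 1.29 and 0.525 CPM (log2 fold change -1.69, edgeR adjusted p = 0.0483). Adra2b and Adra2c, the 2 other alpha-2 receptors, had log2 fold changes of -1.62 and -1.06 with edgeR adjusted p-values of 0.281 and 0.457. Adra1a and Adra1d, at -0.61 and -0.22, had edgeR adjusted p-values of 0.343 and 0.741. The relatives Ffar1, Ffar3, Gpr84, Oxgr1, Adora3, Npy2r, Npy4r, Npy5r and Npy6r did not reach the filter. Of these, Ffar3 and Npy5r had no count in any of the 6 mice, which by counting error alone allows up to 3 counts in a library.

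Genes that make, carry or clear the ligands were listed by role, and of 39 listed 34 were tested, with 3 that rose and 5 that fell (23.5%, median log2 fold change -0.28). Ptges, the inducible prostaglandin E2 synthase, fell from 69.7, 156.2 and 128.1 CPM to 19.5, 30.5 and 18.4 CPM (log2 fold change -2.37, edgeR adjusted p = 0.00463). Around adenosine, Entpd1 (CD39), which degrades extracellular ATP, rose (log2 fold change 1.13, edgeR adjusted p = 0.0144) and Adk, the kinase that clears adenosine within cells, fell (-0.52, edgeR adjusted p = 0.0184). Acss2, which activates acetate, fell by 1.93 on the log2 scale, Slc16a7 (MCT2), a carrier of lactate, pyruvate and ketone bodies, fell by 1.22, and Maob, which oxidizes amines, fell by 1.01, with edgeR adjusted p-values of 0.0198, 0.0361 and 0.0205. Ldha, with the highest mean CPM of the list, was at 819.7, 1294 and 1172 CPM in the controls and 720.7, 537.6 and 831.3 CPM in the cachectic mice, with a log2 fold change of -0.65 (edgeR adjusted p = 0.107).

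**Figure D4:**
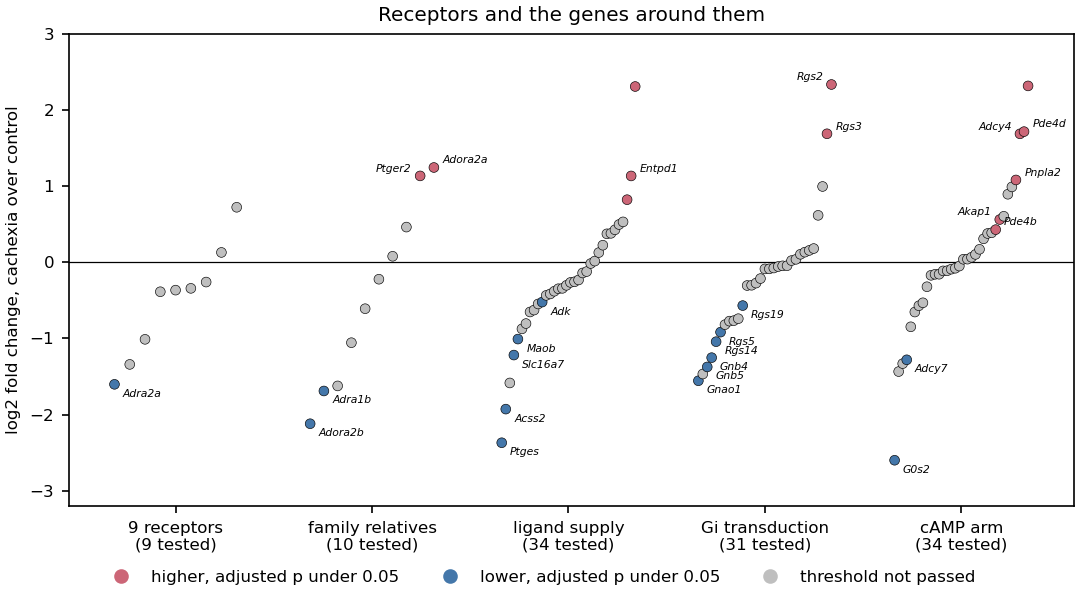
Log2 fold change, cachectic against control (y axis), for the 9 receptors and for every tested gene of the 4 surrounding lists, each gene a point, with called genes coloured and those described in the text named. Adra2a is the only coloured point among the receptors, while each of the 4 lists holds called genes in both directions.

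The list of Gi transduction holds G-protein subunits and proteins that regulate G-protein signals, and it changed in part. Of 32 genes found in the table, 31 were tested, 2 rose and 6 fell (25.8% beside 17.6% of all genes, median log2 fold change -0.09). Gnai2, with the highest CPM of the list on average over the 6 mice, encodes an inhibitory alpha subunit and was at 432.0, 374.4 and 393.7 CPM in the controls and 427.2, 454.7 and 433.2 CPM in the cachectic mice (log2 fold change 0.13, edgeR adjusted p = 0.564). Gnai1 and Gnai3, which also encode inhibitory alpha subunits, had log2 fold changes of -0.05 and -0.21, with edgeR adjusted p-values of 0.934 and 0.233. Gnao1, the alpha subunit of Go, fell by 1.56, and the beta subunits Gnb5 and Gnb4 fell by 1.37 and 1.25 on the log2 scale, with edgeR adjusted p-values of 0.0156, 0.00388 and 0.0172. RGS proteins shorten G-protein signals, and 2 of them rose. Rgs2 went from 37.9, 30.3 and 23.8 CPM to 162.0, 175.6 and 126.3 CPM (log2 fold change 2.33, edgeR adjusted p = 0.00134) and Rgs3 from 70.3, 67.7 and 82.9 CPM to 195.8, 241.1 and 274.4 CPM (1.69, edgeR adjusted p = 0.00179). In the other direction Rgs5, Rgs14 and Rgs19 had log2 fold changes of -0.92, -1.04 and -0.57, with edgeR adjusted p-values of 0.0308, 0.0462 and 0.0200. All 8 called genes had groups that did not overlap.

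Downstream, in the arm that makes, breaks down and reads cyclic AMP, 34 of 36 genes were tested, 6 rose and 2 fell (23.5%, median log2 fold change -0.01). Adenylyl cyclases moved both ways, Adcy4 rising from 28.1, 34.0 and 31.2 CPM to 98.9, 106.5 and 94.9 CPM (log2 fold change 1.69, edgeR adjusted p = 0.000878) and Adcy7 falling from 44.9, 43.0 and 41.2 CPM to 20.8, 19.0 and 13.2 CPM (-1.28, edgeR adjusted p = 0.00498). The cyclic AMP phosphodiesterases Pde4d and Pde4b rose, with log2 fold changes of 1.72 and 0.43 and edgeR adjusted p-values of 0.0050 and 0.0464. At the lipase itself, Pnpla2 (ATGL), which takes the first fatty acid from triglyceride, rose from 1326, 1511 and 1628 CPM to 3353, 2445 and 3643 CPM (log2 fold change 1.08, edgeR adjusted p = 0.0197). G0s2, its inhibitor, fell from 552.2, 351.9 and 445.5 CPM to 55.8, 31.01 and 135.9 CPM (log2 fold change -2.60, edgeR adjusted p = 0.0139). Lipe, the hormone-sensitive lipase, had a log2 fold change of -0.17 (edgeR adjusted p = 0.572), and Akap1, an anchor of protein kinase A, rose by 0.56 on the log2 scale (edgeR adjusted p = 0.0339). The counts of the 4 lists depended on single mice. Without control mouse 3, 0 relatives, 3 ligand supply genes, 3 Gi genes and 5 genes of the cyclic AMP arm were called, and without control mouse 2, 0 relatives and 5 genes of the cyclic AMP arm.

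The lists of cell markers show how the tissue differed between the groups. Neutrophil markers rose for 11 of 12 tested genes, and the 14 listed, led by S100a9, summed to 33.7, 51.5 and 35.1 CPM in control mice 1, 2 and 3 and to 298.6, 276.5 and 835.1 CPM in cachectic mice 1, 2 and 3. Hcar2 and Ffar2 are known to be expressed in neutrophils as well as in fat cells. Their CPM was higher in cachectic mouse 1 than in cachectic mouse 3, where the neutrophil sum was highest. Cachectic mouse 2 had the lowest neutrophil sum of the cachectic mice, and also the lowest Hcar2 (7.12 CPM) and Ffar2 (16.6 CPM). The part of neutrophil RNA in these receptors was not tested. Endothelial markers rose for 5 of 10 genes and fell for none, with Pecam1 the most abundant, and their sum was 1863, 1821 and 1740 CPM in the controls and 3116, 3894 and 2674 CPM in the cachectic mice. All 6 tested erythroid genes rose, led by Hbb-bs, with a sum of 450.8, 252.5 and 275.1 CPM in the controls and 2856, 1334 and 2557 CPM in the cachectic mice.

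Of 11 fat progenitor markers, 4 fell (Pi16, Lum, Col15a1 and Col1a1) and 2 rose (Ly6a and Icam1). Their sum, led by Dcn, was 4040, 4000 and 4132 CPM in the controls and 3242, 2880 and 2383 CPM in the cachectic mice. Of 5 tested markers of nerve and Schwann cells, 1 fell, Sox10, and the 8 listed, led by Mbp, summed to 40.9, 55.1 and 49.8 CPM and to 45.6, 43.3 and 43.8 CPM. Of 9 tested lymphocyte genes, 1 fell, Trbc2, and the 10 listed, led by Nkg7, summed to 19.8, 13.1 and 21.5 CPM in the controls and 7.23, 11.1 and 7.28 CPM in the cachectic mice. Macrophage markers rose for 2 and fell for 1 of 14, adipocyte markers rose for 2 (Cidec and Pck1) and fell for 1 (Lep) of 14, and no mural (10 tested) or mesothelial (8 tested) marker was called. Of the 10 epididymis genes only Aqp9 was tested, and the list summed to 16.9, 3.38 and 3.12 CPM in control mice 1, 2 and 3 and to at most 2.88 CPM in the cachectic mice. Among the first genes of the lists, S100a8 and Hba-a1 rose, with log2 fold changes of 5.25 and 2.48. Adgre1 of macrophages (-0.39), Acta2 of mural cells (-0.81), Pdgfra of progenitors (-0.75), Msln of the mesothelium (0.62) and Cd79a of B cells (-0.33) did not pass edgeR's threshold. Whether a change in the mix of cells has a part in the lower Adra2a was not tested.

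**Figure D5:**
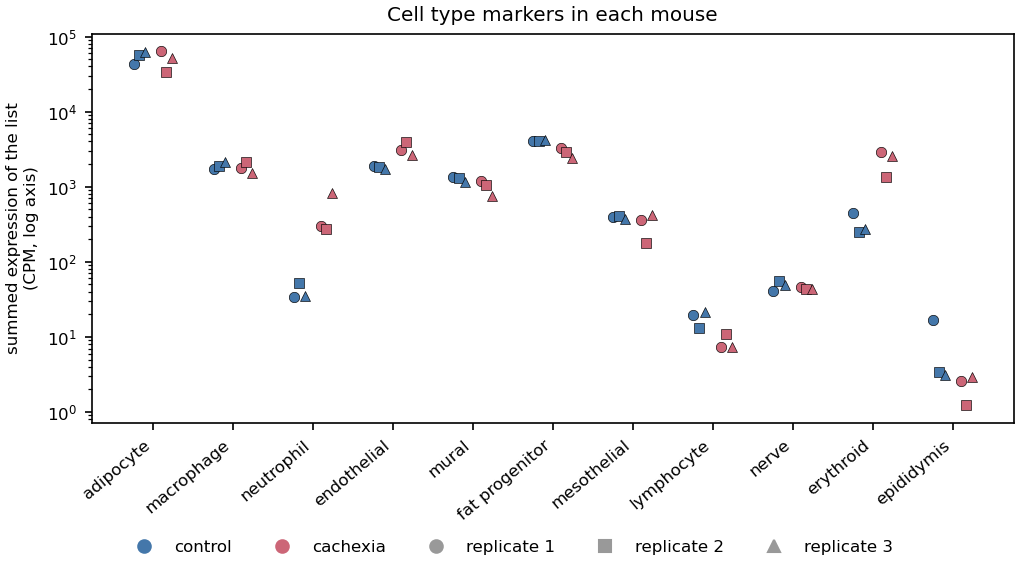
Summed expression of each list of cell markers (CPM, log axis) in every mouse, with 1 symbol per replicate number. The neutrophil, endothelial and erythroid sums of the cachectic mice lie above every control, the fat progenitor sums lie below, and the adipocyte sum is lowest in cachectic mouse 2.

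The genes whose profile over the 6 mice was most like that of Adra2a were Cass4, a docking protein of focal adhesions, and Fam57b, a ceramide synthase, at root mean square differences of 0.0768 and 0.0770 in centred log2 CPM. Cass4 had 3.81, 4.93 and 4.42 CPM in the controls and 1.87, 1.47 and 1.38 CPM in the cachectic mice, close to Adra2a in level as well. Fam57b had 12.8, 15.6 and 13.3 CPM in the controls and 5.13, 5.04 and 4.65 CPM in the cachectic mice. In all, 207 tested genes, protein-coding or not, lay within 0.25 of Adra2a.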

How the data were processed

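Total RNA of eWAT was sequenced as read pairs of 150 bases. After removal of poor reads, the authors aligned with Hisat2 and counted per gene (featureCounts 1.5.0-p3 in the submitters' processing notes). They deposited raw counts and FPKM values, the latter scaled by depth and gene length. Whether strand was used is not given in the sources used here. The notes name mm9, but coordinates in the deposited table are those of GRCm38: 99.8% of its genes are in GENCODE M21, 98.3% of these at the same position, 7 of the 9 receptors included (not Ffar4 and Adra2a). The authors' table of fold changes and p-values (DESeq2 1.16.1), with 6 columns of per-sample values and 2 of group means, was not used.

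Counts were analysed with edgeR 4.0.16 in R 4.3.3 (filterByExpr, TMM, quasi-likelihood test, no covariates). Log2 CPM used a pseudocount of 0.5. The biological coefficient of variation of 0.264 and the counts per mouse set the precision. Named were the 9 receptors, relatives by family or ligand, up to 4 called genes per list and direction with the smallest p-values, the most abundant gene of a list, the 2 protein-coding genes nearest to each called receptor, Adrb3 and overlapping genes. Slc16a7, Gnai1, Gnai3, Rgs5, Rgs14, Akap1, Pde4b, Lipe, Adrb1 and the called markers other than the first or most abundant of a list were named after their values were seen. Some genes that this rule covers are not reported here. The receptors and lists were chosen with earlier results of these data known. No pair of samples had near-identical counts. On simulated counts (15700 genes tested, 200 changed by a log2 fold change of 2), edgeR recovered 88%, and 5.38% of its calls were false. These counts had the spread typical of genes at each level, and the changes were larger than that of any receptor. The share recovered therefore does not apply to the receptors with a wider spread. Other settings were DESeq2 1.42.0, RLE factors, plain totals, no filter, a minimum of 10 counts per mouse, 1 mouse left out at a time, a block by replicate number, limma 3.58.1 (voom, or log2 FPKM plus 1 or 0.1), protein-coding genes alone and a log2 fold change of at least 1. Leaving out control 1 and cachexia 2 together and a newer quasi-likelihood form were added after seeing the data. Promoters of 8 receptors came from RefSeq, and that of Hcar2 was not used here.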

Additional observations from a re-analysis of the deposited data

How the results depend on the processing

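Adra2a had the same direction under all 18 other settings, with a log2 fold change between -1.74 and -0.72 (the latter on log2 FPKM plus 1), and was called under 17 of them. The exception was the fit without control replicate 3, at -1.63 with an edgeR adjusted p-value of 0.0516. With each replicate left out in turn, its log2 fold change lay between -1.74 and -1.51. That of Ffar2 changed sign, to -0.25 without cachexia replicate 1, -0.02 without cachexia replicate 3, -0.10 with the replicate block, -0.13 with limma-voom, and -0.11 and -0.14 with limma on log2 FPKM plus 1 and plus 0.1, and it was called at 0.55 without cachexia replicate 2. With 1 replicate left out at a time, Ffar4 lay between -0.94 and 0.011 (the highest without cachexia replicate 2) and Npy1r between -1.09 and 0.088 (the highest without cachexia replicate 3). Without control replicate 1 and cachexia replicate 2 together, a choice made after seeing the data, Adora1 was at -0.085, Ptger3 was called at -2.30 and Sucnr1 at -0.71, so that 3 receptors were called lower. With 1 replicate left out at a time, the receptors called lower numbered 0 to 1 and those called higher 0 to 1, all genes called 828 to 2339, relatives 0 to 3, ligand supply genes 3 to 8, Gi transduction genes 3 to 7 and cyclic AMP genes 5 to 8. The ratio of Adra2a to Adrb3 kept its sign, between -1.59 and -0.93 with 1 replicate left out, and was -0.87 (exact permutation p = 0.2) with a pseudocount of 2. Each of the lowest gene counts was reached without control replicate 3. At a log2 fold change of at least 1, 1609 genes were called. With at least 10 counts in every sample 2 relatives were called, and without both replicates named above 2 relatives and 4 Gi transduction genes. DESeq2 called 13 Gi transduction genes. The cause of these differences was not tested. The replicate numbers are only names of mice. Same-numbered mice did not deviate together (r of -0.003, -0.011 and 0.008), and with the replicate block 1881 genes were called, 5 of them Gi transduction and 5 cyclic AMP genes, with no change in the call of any receptor. In all, 272 of 305 alternative values kept their direction and call or their size. With 3 mice per group, changes of the size seen for the other receptors could not be told from the spread between mice, and intervals cover these samples alone.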
